A study of Mus musculus with 3 samples.

Results

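The microRNAs (miRNAs) described here are 10 mature strands of 3 families, miR-130/miR-301, miR-148/miR-152 and miR-181, chosen by name out of the 1881 mouse miRNAs with probes on the array. They were mmu-miR-130a-3p, mmu-miR-130b-3p and mmu-miR-301a-3p, then mmu-miR-148a-3p, mmu-miR-148b-3p and mmu-miR-152-3p, then mmu-miR-181a-5p, mmu-miR-181b-5p, mmu-miR-181c-5p and mmu-miR-181d-5p, written below without the species prefix mmu. They were measured in exosomes, the small vesicles that cells release, which had been pelleted by ultracentrifugation from the medium of bone marrow mesenchymal stem cells (MSCs) from male wild-type C57BL/6 mice aged 4 to 6 weeks. H+G-Exo came from cells held in hypoxia with GW4869, an inhibitor of neutral sphingomyelinase, an enzyme of exosome formation. H-Exo came from cells held in hypoxia alone, and N-Exo from cells held in normoxia. The time was 24 h for each, the cells were at passages 3 to 6, and each preparation came from 10 dishes. The growth medium held fetal bovine serum, and the labels give no dose of GW4869.

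With 1 array for each group, the differences have no replicate check, and no test or p-value is given. The SD after ± is taken over the spots that repeat 1 probe within an array, so it covers technical error alone. A scaled signal is the mean over spots in multiples of that array's 75th percentile, itself taken over probes detected on all 3 arrays. A miRNA was detected where more than 50% of the spots of its brightest probe were well above background, and a difference passed the rule used here if the miRNA was detected on both arrays, its scaled signals were at least 2-fold apart and the gap was over 2 standard errors over spots. The number of vesicles and the miRNA content per vesicle cannot be told apart in such preparations. Of 8 miRNAs abundant in stromal cells, 8 were detected in H+G-Exo, 7 in H-Exo and 8 in N-Exo, with summed scaled signals of 49.9, 125.2 and 287.0. The stromal sum thus lay lowest in H+G-Exo and highest in N-Exo, and its part in the results was not tested. The mean scaled signals of the 10 members below had the same order, but 4 members were detected on neither hypoxia array. Before scaling, miR-152-3p, miR-181b-5p and miR-181d-5p read 134.1, 100.7 and 89.4 in H+G-Exo, against 120.5, 63.1 and 67.9 in H-Exo. Unscaled miR-130a-3p and miR-301a-3p kept the order, with 1016 and 295 in H+G-Exo against 1247 and 307 in H-Exo. Of the markers of other cells, those of endothelium, liver and epithelium were detected on no array, while blood markers were detected for 3, 2 and 2 of 7 and muscle markers for 2, 1 and 2 of 3 in H+G-Exo, H-Exo and N-Exo.

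A miRNA represses messenger RNAs that pair with its seed, the bases 2 to 8 from its 5′ end, so miRNAs of 1 seed are grouped as a family with largely shared targets. The miR-130/miR-301 family is known for promoting angiogenesis and for acting on TGF-beta and PPAR-gamma signalling. The miR-148/miR-152 family is known for repressing the DNA methyltransferase Dnmt1, and the miR-181 family for tuning T cell receptor signalling and blood cell differentiation. The mature strands are shown because their seeds define the families and their other bases decide which probe can tell the members apart. All 10 were found in the RefSeq miRNA table (GRCm38.p6), and the capitals mark the seed.
miR-130a-3p: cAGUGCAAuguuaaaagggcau
miR-130b-3p: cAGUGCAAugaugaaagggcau
miR-301a-3p: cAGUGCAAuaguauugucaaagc
miR-148a-3p: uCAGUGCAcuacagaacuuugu
miR-148b-3p: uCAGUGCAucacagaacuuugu
miR-152-3p: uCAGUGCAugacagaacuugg
miR-181a-5p: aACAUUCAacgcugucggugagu
miR-181b-5p: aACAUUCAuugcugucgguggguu
miR-181c-5p: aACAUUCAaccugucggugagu
miR-181d-5p: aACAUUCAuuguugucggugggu

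The members held 3 seeds. AGUGCAA stood in 7 of 1679 mature names of the table (0.417%), CAGUGCA in 3 (0.179%) and ACAUUCA in 4 (0.238%), so that every name with one of the last 2 seeds was a member. The miR-130/miR-301 and miR-148/miR-152 strands share the 7 letters CAGUGCA, at bases 1 to 7 of miR-130a-3p and at bases 2 to 8 of miR-148a-3p, so their seeds are shifted by 1 base. miR-130a-3p and miR-130b-3p differ at 2 of 22 bases, as do miR-148a-3p and miR-148b-3p. miR-181a-5p and miR-181c-5p are identical over their first 10 and last 12 bases.

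The brightest probe of each member pairs from near the 3′ end of its strand. It reaches base 3 in miR-301a-3p and miR-148a-3p and base 10 in miR-181a-5p and miR-181b-5p. The probes of the miR-181 members are shown because their differences lie at few bases. Written 5′ to 3′ as the array files list them, with capitals for the longest run that also pairs with the most similar other member, they were as follows.
miR-181a-5p: ACTCACCGACAGcg
miR-181b-5p: ACCCACCGACAgca
miR-181c-5p: ACTCACCGACAGgttgaat
miR-181d-5p: ACCCACCGACAacaatg
The miR-181a-5p probe shared a run of 12 pairing bases with miR-181c-5p, and the miR-181b-5p probe a run of 11 with miR-181d-5p. In the other families the longest such run was 12 bases between miR-148a-3p and miR-148b-3p and 9 between miR-130a-3p and miR-130b-3p. How far such runs carried signal from one member to the probe of another was not tested.

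The brightest probes matched these positions of the mm9 build, as the array files list them with the lower position first and an end that may be off by 1 base. In the miR-130/miR-301 family these were chr2:84581317-84581334 for miR-130a-3p, chr16:17124209-17124225 for miR-130b-3p and chr11:86926559-86926578 for miR-301a-3p. In the miR-148/miR-152 family they were chr6:51219874-51219892 for miR-148a-3p, chr15:103115620-103115637 for miR-148b-3p and chr11:96711758-96711773 for miR-152-3p. In the RefSeq gene table the Mir301 gene lies within the span of Ska2, Mir148b within Copz1 and Mir152 within Copz2. miR-181a-5p and miR-181b-5p each come from 2 genes. Their probes matched chr1:139863054-139863067 and chr1:139863236-139863249, with 168 bases between them, and chr2:38708270-38708283 and chr2:38709374-38709387, within the span of Nr6a1. The array cannot tell the products of the chromosome 1 and chromosome 2 genes apart. miR-181c-5p (chr8:86702792-86702809) and miR-181d-5p (chr8:86702628-86702643) are neighbours on chromosome 8.

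All 10 members were detected in N-Exo, against 6 in H+G-Exo and 5 in H-Exo. Over all 1881 miRNAs, 675 were detected in H+G-Exo (35.9%), 586 in H-Exo (31.2%) and 685 in N-Exo (36.4%). miR-148a-3p, miR-148b-3p, miR-181a-5p and miR-181c-5p were detected in N-Exo alone, and miR-130b-3p in H+G-Exo and N-Exo. The other 5 were detected on every array.

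**Figure D1:**
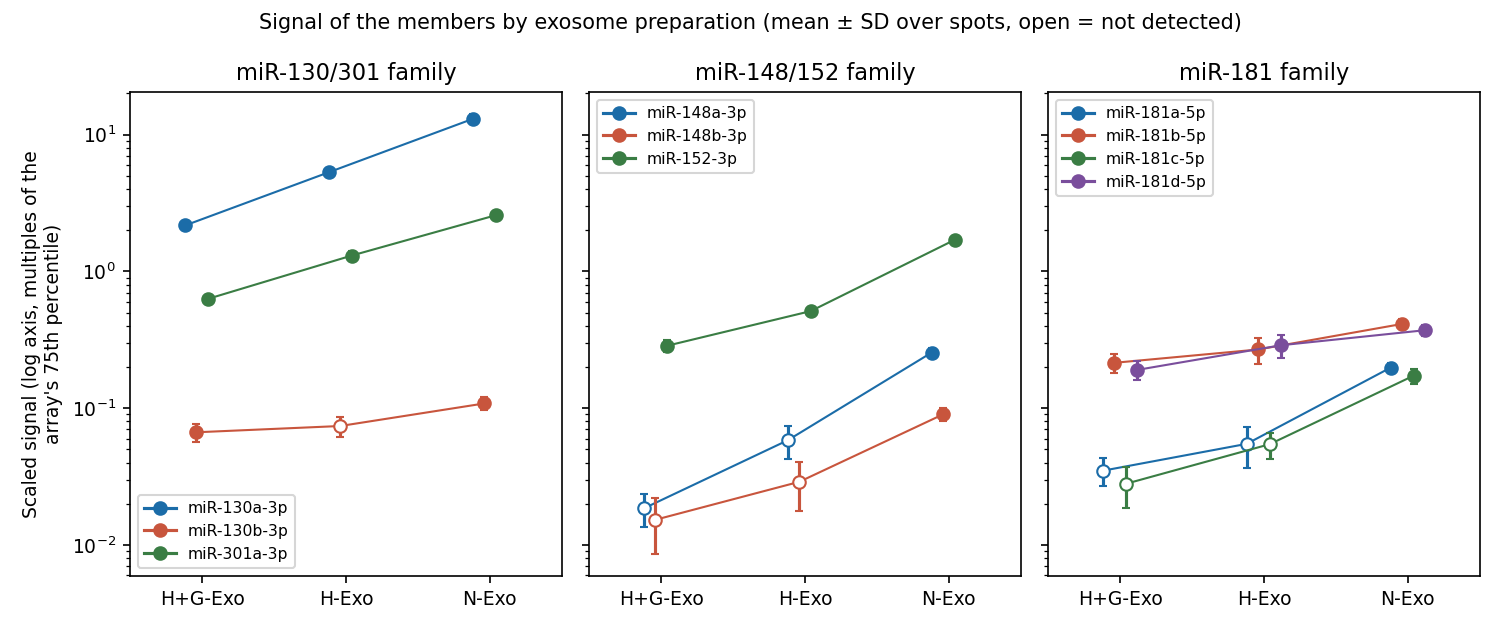
Scaled signal of the 10 members (log axis, in multiples of the array's 75th percentile) in H+G-Exo, H-Exo and N-Exo, as the mean of the spots with SD bars; open circles were not detected. Every member is highest in N-Exo, and the 4 members detected in N-Exo alone have open circles in both other groups.

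miR-130a-3p had a scaled signal of 2.17 ± 0.0980 in H+G-Exo, 5.31 ± 0.207 in H-Exo and 13.0 ± 1.14 in N-Exo, over 15 spots each. The highest spot was 2.29 in H+G-Exo, the spots of H-Exo ran between 4.95 and 5.54, and the lowest spot in N-Exo was 10.97, so the 3 arrays did not overlap. Before scaling the probe read 1016, 1247 and 5434. miR-301a-3p, known from human cells for activating NF-kappaB, followed the same order. Its scaled signal was 0.630 ± 0.0197 in H+G-Exo, 1.31 ± 0.1002 in H-Exo and 2.57 ± 0.0888 in N-Exo, with no overlap of scaled spots. Before scaling miR-301a-3p read 295 in H+G-Exo, 307 in H-Exo and 1074 in N-Exo. Its unscaled spots in H+G-Exo (283 to 307) lay within the range of those in H-Exo (263 to 339). miR-130b-3p was near the detection limit at 0.0667 ± 0.0102 in H+G-Exo, 0.0741 ± 0.0125 in H-Exo and 0.108 ± 0.0118 in N-Exo. All 15 of its spots were well above background in H+G-Exo and in N-Exo, and 6 of 15 in H-Exo, where the unscaled signal was 17.4 against 31.3 and 45.2. The second, shorter probe of miR-130b-3p was detected on no array. Before scaling it read 10.6 in H+G-Exo, 4.24 in H-Exo and 11.3 in N-Exo, so the detection of miR-130b-3p rests on 1 probe.

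miR-152-3p, which lies in the span of the coatomer gene Copz2, had a scaled signal of 0.286 ± 0.0286 in H+G-Exo, 0.513 ± 0.0351 in H-Exo and 1.70 ± 0.0423 in N-Exo. Its scaled spots did not overlap between any 2 of the 3 arrays. Before scaling miR-152-3p read 134.1, 120.5 and 709.8, so H+G-Exo was then above H-Exo, with spots that overlapped. miR-148a-3p read 0.0185 ± 0.00507 in H+G-Exo, 0.0583 ± 0.0158 in H-Exo and 0.255 ± 0.0215 in N-Exo, with 0 of 14, 2 of 15 and 14 of 14 spots well above background. For miR-148b-3p these signals were 0.0153 ± 0.00666, 0.0290 ± 0.0113 and 0.0902 ± 0.00988, with 0, 0 and 15 of 15 spots. In both, the lowest spot of N-Exo was above the highest spot of the other arrays. These readings are those of the brightest probe. The second, shorter probe of miR-148b-3p was detected on no array and read 0.00327 ± 0.00684 in N-Exo. The detection of miR-148b-3p thus rests on 1 probe.

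In the miR-181 family the members split into 2 pairs, those detected on every array and those detected in N-Exo alone. These were also the pairs whose probes shared the longest pairing runs, and the part of such runs in the split was not tested. miR-181b-5p had a scaled signal of 0.215 ± 0.0346 in H+G-Exo, 0.269 ± 0.0566 in H-Exo and 0.413 ± 0.0350 in N-Exo. miR-181d-5p had 0.191 ± 0.0295 in H+G-Exo, 0.289 ± 0.0568 in H-Exo and 0.372 ± 0.0365 in N-Exo. For each of these, the spots of H-Exo overlapped those of both other arrays, while H+G-Exo and N-Exo were apart. miR-181a-5p, the member best known from T cells and blood cell differentiation, read 0.0349 ± 0.00812 in H+G-Exo and 0.0549 ± 0.0183 in H-Exo, both not well above background, against 0.198 ± 0.0158 in N-Exo. miR-181c-5p, known in rat heart for acting on a mitochondrially encoded oxidase subunit, read 0.0280 ± 0.00924 in H+G-Exo and 0.0546 ± 0.0118 in H-Exo, also not well above background, against 0.173 ± 0.0217 in N-Exo. For these 2 members every spot of N-Exo was above every spot of the other arrays.

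The comparison of H-Exo with N-Exo asks which members differed after hypoxia. miR-152-3p was 3.32-fold lower in H-Exo (log2 difference -1.73 ± 0.03, standard error over spots) and miR-130a-3p 2.45-fold lower (-1.29 ± 0.04). miR-301a-3p was 1.97-fold lower, just short of the 2-fold rule, miR-181b-5p 1.54-fold lower and miR-181d-5p 1.29-fold lower. Of the 5 members measured on both arrays, 2 passed the rule as lower and 0 as higher. Of all 582 miRNAs measured on both, 10.7% passed it as lower and 4.3% as higher, and of the 285 numbered below 3000, which are mostly the earlier annotated miRNAs, 21.8% passed it as lower. A count of 2 of 5 is too small to be read against these shares.

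The median log2 difference was -0.98 over the 5 members, 0.34 over all 582 miRNAs and 0.10 over those numbered below 3000. Below miR-152-3p lay 13 of the 582, below miR-130a-3p 35, below miR-301a-3p 63, below miR-181b-5p 100 and below miR-181d-5p 112. At most 19.2% of the measured miRNAs thus lay below any measured member. Relative to the median of all miRNAs, the log2 difference was -2.07 for miR-152-3p, -1.64 for miR-130a-3p, -1.32 for miR-301a-3p, -0.96 for miR-181b-5p and -0.71 for miR-181d-5p.

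The remaining 5 members were detected in N-Exo and not in H-Exo. Their folds were taken against the higher of their own signal and the lowest detected scaled signal of the array that missed them. That lowest signal was 0.0653 in H-Exo. Where it was the higher, the fold is a lower bound, which leaves out the spread over spots. In H-Exo miR-148a-3p was lower by at least 3.91-fold, miR-181a-5p by at least 3.03-fold, miR-181c-5p by at least 2.65-fold and miR-148b-3p by at least 1.38-fold. For miR-130b-3p its own signal in H-Exo (0.0741) was the higher, so its 1.46-fold is the ratio of the measured signals and no bound. Without scaling the values were 6.94 for miR-148a-3p, 5.38 for miR-181a-5p, 4.70 for miR-181c-5p, 2.59 for miR-130b-3p and 2.45 for miR-148b-3p. Within the chromosome 8 pair, the bound for miR-181c-5p exceeded the 1.29-fold measured for miR-181d-5p. Likewise the bound for miR-181a-5p exceeded the 1.54-fold of its chromosome 1 and chromosome 2 neighbour miR-181b-5p. Without scaling miR-181d-5p was 2.29-fold lower and miR-181b-5p 2.73-fold lower. miR-181a-5p and miR-181c-5p were detected through N-Exo alone, where they were high.

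**Figure D2:**
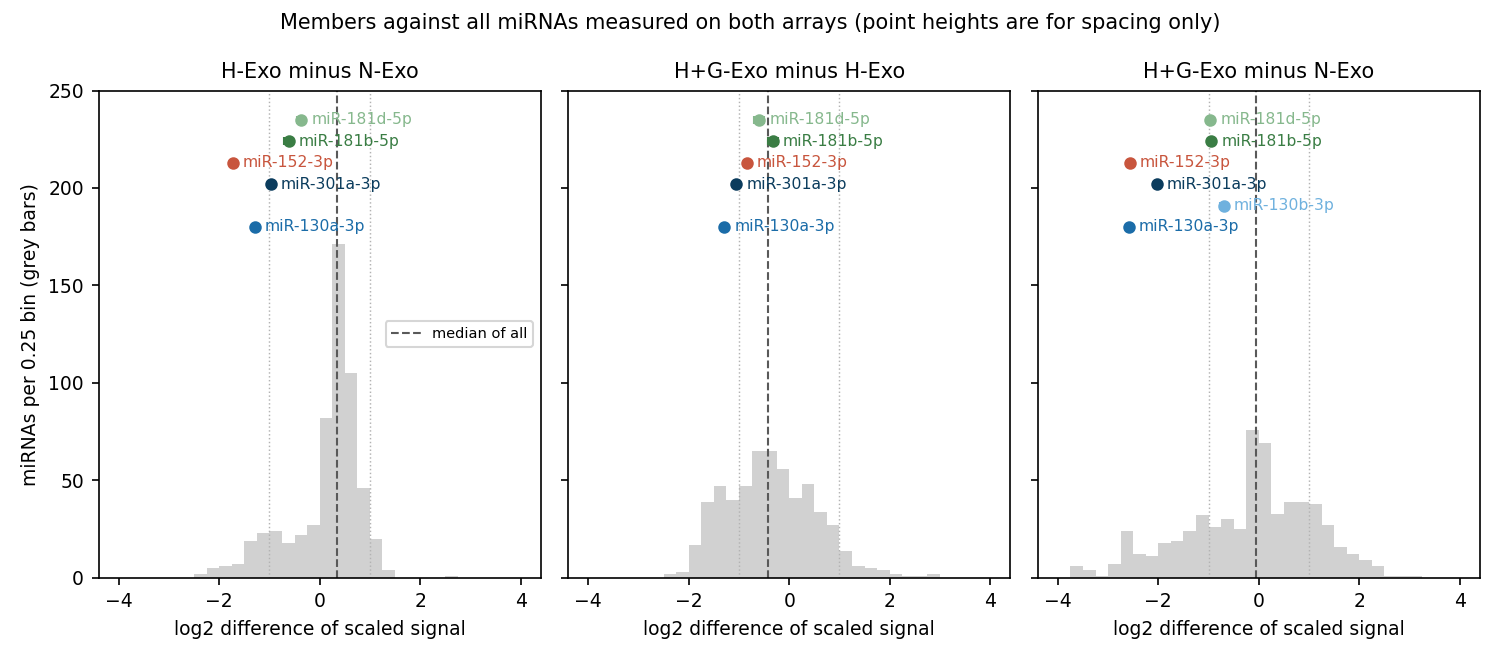
The log2 difference of scaled signal for all miRNAs measured on both arrays (grey bars, 582, 566 and 606 miRNAs) and for the measured members (points with the standard error over spots; their height is for spacing only). The dashed line is the median of all miRNAs and the dotted lines mark 2-fold. In H-Exo minus N-Exo all 5 points lie left of the median, while in H+G-Exo minus H-Exo miR-181b-5p lies just right of it.

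Setting H+G-Exo against H-Exo asks what differed once GW4869 was added under hypoxia. miR-130a-3p was 2.45-fold lower in H+G-Exo (log2 difference -1.29 ± 0.02) and miR-301a-3p 2.07-fold lower (-1.05 ± 0.03), and both passed the rule. miR-152-3p was 1.79-fold lower, miR-181d-5p 1.51-fold lower and miR-181b-5p 1.25-fold lower. Thus 2 of the 5 measured members passed as lower and 0 as higher, against 26.1% lower and 6.18% higher of all 566 measured miRNAs, and 39.1% lower of the 274 numbered below 3000. Here too 2 of 5 is too small a count to be read against these shares.

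The median log2 difference was -0.84 over these 5 members, against -0.42 over all miRNAs and -0.73 over those numbered below 3000. Relative to the median of all miRNAs, miR-130a-3p stood at -0.87, miR-301a-3p at -0.63, miR-152-3p at -0.42, miR-181d-5p at -0.18 and miR-181b-5p at 0.10. In this comparison 102 of the 566 miRNAs lay below miR-130a-3p and 304 below miR-181b-5p. The calls rested on the scaling: without it miR-130a-3p was 1.23-fold lower in H+G-Exo and miR-301a-3p 1.04-fold lower, and miR-152-3p, miR-181d-5p and miR-181b-5p were 1.11-fold, 1.32-fold and 1.59-fold higher. The 4 members detected in N-Exo alone have no fold here. miR-130b-3p was detected in H+G-Exo and not in H-Exo, yet its scaled signal was not above that of H-Exo, so it has none either.

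The comparison of H+G-Exo with N-Exo shares its arrays with the other comparisons and is the sum of their log2 differences for members detected throughout. miR-130a-3p was 6.01-fold lower in H+G-Exo, miR-152-3p 5.95-fold and miR-301a-3p 4.08-fold. Both miR-181 members stayed within the rule, miR-181d-5p at 1.95-fold lower and miR-181b-5p at 1.92-fold lower, as did miR-130b-3p at 1.62-fold lower. Of 6 measured members 3 passed as lower and 0 as higher, beside 26.1% lower and 18.3% higher of all 606 measured miRNAs and 44.1% lower of the 295 numbered below 3000. A count of 3 of 6 is too small to be read against these shares. The median log2 difference was -1.50 over the 6 members, -0.05 over all 606 and -0.70 over the 295 numbered below 3000. Of the members detected in N-Exo alone, with bounds against the lowest detected signal of H+G-Exo (0.0376 in place of 0.0653), miR-148a-3p was lower in H+G-Exo by at least 6.78-fold, miR-181a-5p by at least 5.26-fold, miR-181c-5p by at least 4.59-fold and miR-148b-3p by at least 2.40-fold.

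On their brightest probes the members did not differ by the same amount. Among the 5 measured in H-Exo against N-Exo, all 10 pairs had log2 differences further apart than 2 standard errors over spots, a technical error. That error leaves out the disagreement between the probes of 1 member, which reached 0.34 for miR-181d-5p. The gap of miR-181b-5p below miR-181d-5p (-0.26) was smaller than this. The widest gap was that of miR-152-3p below miR-181d-5p, by -1.37 ± 0.09 on the log2 scale. Such a gap is the same under every scaling that divides an array by 1 factor. Within the miR-130/miR-301 family, miR-130a-3p lay below miR-301a-3p by -0.32 ± 0.05 in H-Exo against N-Exo and by -0.24 ± 0.04 in H+G-Exo against H-Exo. Between H+G-Exo and N-Exo, 13 of 15 pairs were over 2 standard errors apart, and the exceptions were miR-130a-3p with miR-152-3p (-0.02 ± 0.05) and miR-181b-5p with miR-181d-5p (0.02 ± 0.10). In the main processing miR-130a-3p and miR-152-3p thus reached nearly the same total difference in unequal steps. miR-152-3p lay 0.44 further down in H-Exo against N-Exo, and miR-130a-3p 0.45 further down in H+G-Exo against H-Exo. With normexp, another background correction, the first step was nearly equal, at -1.37 for miR-130a-3p and -1.35 for miR-152-3p. Their totals in H+G-Exo against N-Exo then differed, at -2.48 and -2.07. Under quantile normalization the first step was -1.08 and -1.90, and the total -2.28 and -2.38.

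Both probes of a member were in the same direction wherever both were detected, in 5 of 5 members in each comparison. For miR-130a-3p the second probe, 1 base shorter, put H-Exo 2.73-fold below N-Exo, against 2.45-fold for the brightest. For miR-152-3p it was 3.66-fold against 3.32-fold. The probes agreed least for miR-181d-5p. Its shorter probe was lower than in N-Exo by 1.02-fold in H-Exo and by 1.43-fold in H+G-Exo, against 1.29-fold and 1.95-fold for the brightest, so on the shorter probe H-Exo and N-Exo were nearly level for miR-181d-5p.

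The GC content of the brightest probe was 36.8% for miR-130a-3p, 38.1% for miR-301a-3p, 47.1% for miR-152-3p, 52.9% for miR-181d-5p and 64.3% for miR-181b-5p, and the median over the 582 miRNAs was 60.0%. Across those miRNAs the log2 difference of H-Exo minus N-Exo went with the probe's GC content (Spearman's rho 0.44, all from the same arrays, as a description). The 3 members below 50% GC had larger differences than the 2 above it, but within each of these sets the order did not follow GC content. The part of GC content in the results was not tested.

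**Figure D3:**
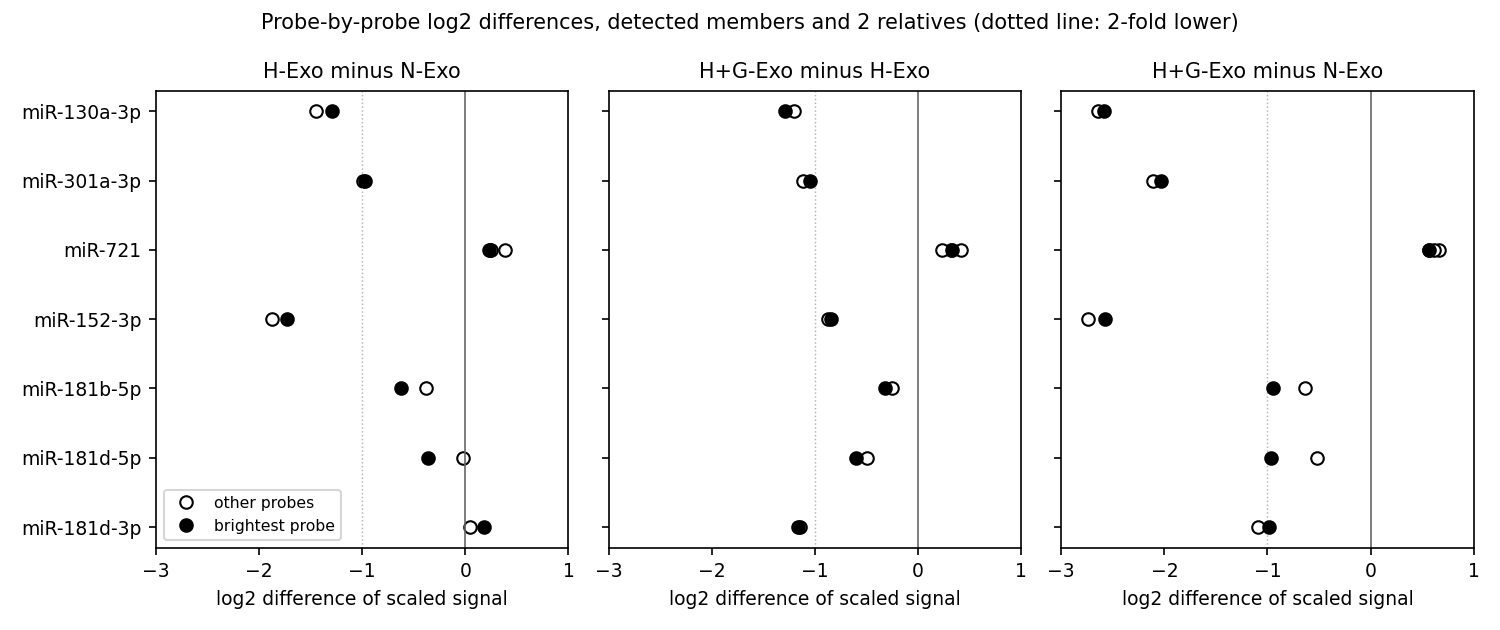
The log2 difference of scaled signal for each probe of the 5 members detected on every array, and of miR-721 and miR-181d-3p; filled points are the brightest probe and open points the others. The probes of 1 member lie furthest apart for miR-181d-5p, and miR-721 lies right of 0 in every panel.

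Relatives of the members, 15 miRNAs that share the AGUGCAA seed or are the other arm of a hairpin of the members or of miR-301b, were mostly not detected. The list was miR-301b-3p, miR-721 and 13 other arms, and 2 of the 15 were detected on each array, miR-721 and miR-181d-3p. The other arms of miR-130a, miR-130b, miR-301a, miR-301b, miR-148a, miR-148b, miR-152, miR-181a, miR-181b and miR-181c were not detected on any array. Neither was miR-301b-3p, whose probe match lies 325 bases from that of miR-130b-3p on chromosome 16. A search of the RefSeq table added miR-130c, miR-6341 and miR-6389 to the holders of AGUGCAA, chosen after the values were seen, and none of them was detected either.

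miR-721 is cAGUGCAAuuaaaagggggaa, shown because it carries the miR-130 seed (capitals) yet did not follow the family. Its scaled signal was 2.31 ± 0.0404 in H+G-Exo (5 spots), 1.83 ± 0.0699 in H-Exo (6 spots) and 1.56 ± 0.0743 in N-Exo (7 spots). It was thus highest in H+G-Exo and lowest in N-Exo, and the spots of this brightest probe did not overlap between the arrays. The other probes of miR-721 gave the same order, with a larger SD in H+G-Exo and in N-Exo. The 14-base probe, for example, read 2.12 ± 0.358 in H+G-Exo, 1.70 ± 0.302 in H-Exo and 1.43 ± 0.223 in N-Exo. Against N-Exo the brightest probe was 1.48-fold higher in H+G-Exo and 1.18-fold higher in H-Exo, both within the 2-fold rule. The second of these turned with the scaling and lay at a log2 difference of -0.61 to 0.23 over the 7 scalings tried. Relative to the median of all miRNAs miR-721 stood at -0.11 when H-Exo was set against N-Exo, at 0.75 for H+G-Exo against H-Exo and at 0.62 for H+G-Exo against N-Exo. Its brightest probe pairs with bases 9 to 21 of the strand, outside the seed, and a run of 9 of them also pairs with miR-130a-3p.

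miR-181d-3p, the other arm of miR-181d, varied widely between spots, at 0.285 ± 0.101 in H+G-Exo, 0.638 ± 0.229 in H-Exo and 0.562 ± 0.148 in N-Exo. In H+G-Exo it was 2.24-fold below H-Exo and passed the rule, although the spots of the arrays overlapped. Between H-Exo and N-Exo it differed by 0.18 ± 0.17 on the log2 scale, within 2 standard errors over spots. Without scaling H+G-Exo was 1.12-fold below H-Exo.

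Of the 562 miRNAs detected on every array, the 3 whose pattern was most like that of miR-130a-3p, by the distance between log2 signals centred over the 3 arrays, were miR-22-3p (distance 0.0325), miR-362-3p (0.0391) and miR-30a-5p (0.0716). miR-22-3p had scaled signals of 1.45 in H+G-Exo, 3.59 in H-Exo and 8.97 in N-Exo. Closest to miR-152-3p were miR-199a-5p (0.104), miR-193a-3p (0.144) and miR-195a-5p (0.146), the first with 0.404, 0.799 and 2.60. Closest to miR-181b-5p were miR-3473f (0.108), miR-222-3p (0.124) and miR-342-3p (0.156), and miR-222-3p read 0.336, 0.472 and 0.708. With 3 arrays such likeness is a description of these arrays.

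**Figure D4:**
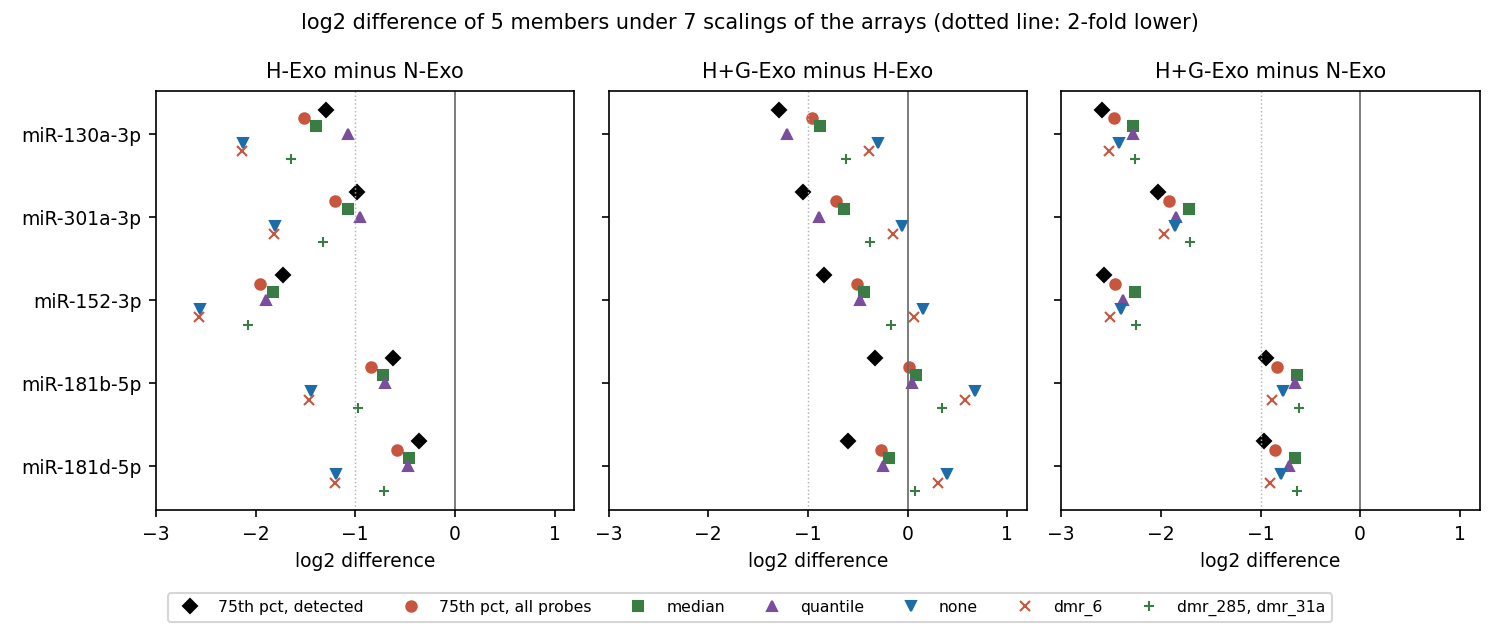
The log2 difference of the 5 members detected on every array under 7 scalings, the 75th percentile over detected probes (black diamonds), 5 others and none. In H-Exo minus N-Exo and H+G-Exo minus N-Exo every point lies left of 0, while in H+G-Exo minus H-Exo the points of miR-152-3p, miR-181b-5p and miR-181d-5p lie on both sides.

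Under 7 scalings of the arrays, the direction of all 5 members held in H-Exo against N-Exo. miR-130a-3p ran from -2.13 to -1.08 and miR-152-3p from -2.57 to -1.73 on the log2 scale, and both passed the rule under all 7. miR-301a-3p ran from -1.82 to -0.96 and passed under 5, while miR-181b-5p (-1.46 to -0.62) and miR-181d-5p (-1.20 to -0.36) passed under 2. In H+G-Exo against N-Exo the range was -2.59 to -2.26 for miR-130a-3p, -2.57 to -2.25 for miR-152-3p and -2.03 to -1.70 for miR-301a-3p, and each passed under all 7. In H+G-Exo against H-Exo miR-130a-3p ran from -1.29 to -0.30 and passed under 2 scalings, and miR-301a-3p ran from -1.05 to -0.06 and passed under 1. miR-152-3p (-0.84 to 0.15), miR-181d-5p (-0.60 to 0.40) and miR-181b-5p (-0.32 to 0.67) changed sign. The median of all miRNAs itself moved from -0.42 to 0.57 with the scaling in this comparison. Taking the difference relative to that median all but cancels any scaling by 1 factor per array, so of the scalings tried only quantile normalization could give a clearly different value. Under it miR-130a-3p lay at -1.08 from the median, miR-301a-3p at -0.77, miR-152-3p at -0.36, miR-181d-5p at -0.12 and miR-181b-5p at 0.17.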

How the data were processed

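RNA of 3 exosome preparations was hybridized to 1-colour mouse miRNA arrays, 1 array each. The labels' protocols name a cRNA and a cDNA kit, so how the RNA was labelled is uncertain, and although the design text speaks of 3 samples per kind, each group here is 1 array, and pooling is not stated. Per the file headers, the authors quantified the scans with Agilent Feature Extraction 10.7.1.1 on the mm9 design, and all arrays share 1 slide and scan. The deposited scanner files give the intensity of each spot, background-subtracted by the software and not scaled between arrays. The deposited value table was read as log2 values, with a normalization method not given in the sources used here.

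Groups follow the treatment in the labels. Control spots (2164 per array) and spots marked as outliers (1466 in H+G-Exo, 1369 in H-Exo, 1568 in N-Exo) were left out, and 0 miRNA spots were saturated. The mean over spots was scaled to the 75th percentile of 1119 commonly detected probes (468.9 in H+G-Exo, 235.0 in H-Exo and 417.3 in N-Exo), floored at 0.0653, and put on the log2 scale; bounds use the lowest detected signal of the dim array instead. A miRNA took its brightest probe. The code for calls was run on simulated spots with set fold changes. That run could not check the scaling or the spread between samples. Alternatives covered scaling, background (normexp in limma 3.58.1, offset 50), probe summary, floor, detection and outliers. Python 3.11.15, numpy 2.4.6 and pandas 2.3.3 were used. The number of arrays limits the precision. The named miRNAs are the 10 members, 15 relatives (same seed or other arm) and, per family, the 3 most like its brightest member in pattern. Members and lists were chosen with earlier results of these data known.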

Additional observations from a re-analysis of the deposited data

How the results depend on the processing

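The count of members higher stayed at 0 in all 3 comparisons under each of the 13 alternatives, and the 3 lower in H+G-Exo against N-Exo stayed 3, or 4 with the software's total per miRNA. The added call was miR-130b-3p, at a log2 difference of -2.51 in place of -0.70. Its listed total held that of miR-130a-3p, as described below, so this call is no separate result. In H-Exo against N-Exo the 2 lower became 5 without scaling and with scaling to the dmr_6 control spots (taken as a hybridization spike-in), and 2 or 3 under the others. In H+G-Exo against H-Exo the 2 lower became 1 with quantile normalization and with normexp, and 0 with the 75th percentile over all probes, the median, no scaling, scaling to dmr_6 or to dmr_285 and dmr_31a, the software's total per miRNA and the deposited value table; the other alternatives kept 2. No called member changed sign under any alternative. For all miRNAs, higher calls made up 28.7% of calls in H-Exo against N-Exo, down to 0.730% with dmr_6, and 19.1% in H+G-Exo against H-Exo, up to 96.4% without scaling. In H+G-Exo against N-Exo they made up 41.3%, up to 58.7% with dmr_285 and dmr_31a (taken as labelling spike-ins). With normexp the miR-181 median in H-Exo against N-Exo was -0.13 in place of -0.49. The share of all miRNAs that passed as lower also moved: 10.7% for H-Exo against N-Exo lay between 7.20% (normexp) and 23.4% (dmr_6), 26.1% for H+G-Exo against H-Exo between 1.23% (no scaling) and 27.3% (all spots well above background), and 26.1% for H+G-Exo against N-Exo between 16.1% (normexp) and 26.7% (no floor). Members near the floor, such as miR-130b-3p and miR-148b-3p, are limited by signal over background.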

Other observations

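The software's own total per miRNA did not always stand for 1 member. For miR-130b-3p the listed total was 439 in H+G-Exo, 527 in H-Exo and 2328 in N-Exo. Its largest single probe total was 8.81, 4.95 and 12.6 on these arrays, and the listed total less that probe total equalled the listed total of miR-130a-3p (430, 522 and 2315) on all 3. For miR-181a-5p the listed total was 59.4 in H+G-Exo and 48.3 in H-Exo, above the 30.1 of N-Exo. Its largest probe total was 4.62 in H+G-Exo, 3.67 in H-Exo and 23.1 in N-Exo. In H+G-Exo and H-Exo the listed total less this largest probe total equalled the listed total of miR-17-5p. The total of miR-148b-3p in N-Exo (54.96) also held that of miR-148a-3p (44.4). For miR-181a-5p the listed totals put N-Exo lowest, while its own probes put N-Exo highest.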
